A study of Homo sapiens with 12 samples.

Results

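The DNA replication factors are 40 genes, of 60583 in the deposited count tables, whose products license origins, unwind DNA, synthesise it or protect the fork. They were taken as the genes whose symbol equalled a listed name, in 9 groups by role. Of the 40, 38 passed the filter on low counts in each of the 4 comparisons made here, with 395 to 8618 reads per library. The other 2, POLA2 and FEN1, had almost no reads, and each lies almost wholly under another gene of its own strand. Transient transcriptome sequencing (TT-seq), which captures RNA labelled with 4-thiouridine while it is being made, was run on U2OS cells, an established human osteosarcoma line. A derived line, U2OS-AsiSI, carries AsiSI-ER, the restriction enzyme AsiSI fused to an estrogen receptor domain, and was given OHT, the ligand that brings the fusion into the nucleus, for 1 h. Cells of each line were transfected with a control siRNA (siCtrl) or with an siRNA against INTS11 (siINTS11), the endonuclease subunit of the Integrator complex, and harvested at 48 h. The 4 groups were therefore U2OS siCtrl and U2OS siINTS11, both without the fusion and with no OHT named, and U2OS-AsiSI siCtrl and U2OS-AsiSI siINTS11, both with the fusion and OHT, with 3 replicates each. Line, nuclease and OHT differ together, so their parts cannot be told apart. Whether either line was a single clone is not given in the sources used here.

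Libraries held 20704611 to 38065726 counts, lowest in U2OS-AsiSI siINTS11 replicate 2. INTS11 itself gave 7.07 to 7.86 CPM (counts scaled to library size) under siINTS11 and 8.88 to 10.1 CPM under siCtrl in U2OS, a log2 change of -0.42 (SE 0.09, adjusted p 6.08e-05). In U2OS-AsiSI it gave 9.01 to 9.49 CPM under siINTS11 and 9.64 to 11.0 CPM under siCtrl, a log2 change of -0.13 (SE 0.08, adjusted p 0.172), and scaled by library totals INTS11 changed by -0.22 (adjusted p 0.0339) in U2OS and 0.06 (adjusted p 0.551) in U2OS-AsiSI, so siINTS11 below names the libraries so labelled. An siRNA acts on mature RNA, and nascent reads are no direct check of a knockdown. Of 9 osteoblast lineage markers, 4 (RUNX2, COL1A1, SPARC and ALPL) had at least 30 reads in every library and 4 (SP7, COL1A2, BGLAP and IBSP) had at most 30, BGLAP none. Nothing in the labels says whether replicates were separate cultures, so p-values measure the spread between these libraries, which may be technical.

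A chromosome is copied from many origins. The origin recognition complex marks them, CDC6 and CDT1 load the ring-shaped MCM helicase there in an inactive form, and geminin holds CDT1 back once copying has begun. MCM10, CDC45 and GINS then turn the ring into a moving helicase, polymerase alpha-primase lays down primers, and polymerases epsilon and delta extend them, held to DNA by the PCNA clamp that the RFC complex loads. FEN1 and LIG1 join the lagging-strand pieces, and TIMELESS, CLSPN and TOPBP1 keep stalled forks stable and signal from them. In cycling cells many of these genes are switched on together before S phase by E2F transcription factors, which bind a short word in the promoter.

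The promoters printed here belong to members at the ends of the range of siINTS11 changes among those considered, taken as the mean of both lines: MCM6, RFC3 and POLA1 fell most, PCNA and CDT1 were among those that stood highest. They are the 250 bases before the gene start in RefSeq (GRCh38.p14), read 5′ to 3′ on the gene's strand. Capitals mark E2F words (TTTCCCGC, TTTCGCGC, TTTGCCGC and TTTGGCGC) and CCAAT boxes (CCAAT), on either strand.
MCM6: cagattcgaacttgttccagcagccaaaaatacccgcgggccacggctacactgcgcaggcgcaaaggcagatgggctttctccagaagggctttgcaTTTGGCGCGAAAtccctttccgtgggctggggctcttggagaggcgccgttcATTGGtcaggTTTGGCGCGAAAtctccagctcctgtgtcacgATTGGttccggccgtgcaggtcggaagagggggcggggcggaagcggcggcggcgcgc
RFC3: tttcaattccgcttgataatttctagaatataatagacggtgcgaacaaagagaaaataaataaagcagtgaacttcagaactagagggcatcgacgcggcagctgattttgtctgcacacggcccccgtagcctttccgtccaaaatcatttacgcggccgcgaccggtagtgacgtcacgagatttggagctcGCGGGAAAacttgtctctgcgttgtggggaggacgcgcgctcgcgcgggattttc
POLA1: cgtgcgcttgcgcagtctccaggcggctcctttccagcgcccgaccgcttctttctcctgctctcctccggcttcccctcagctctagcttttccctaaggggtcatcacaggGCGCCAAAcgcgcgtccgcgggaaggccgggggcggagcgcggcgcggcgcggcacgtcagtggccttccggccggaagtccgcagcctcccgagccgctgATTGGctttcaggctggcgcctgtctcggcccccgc
PCNA: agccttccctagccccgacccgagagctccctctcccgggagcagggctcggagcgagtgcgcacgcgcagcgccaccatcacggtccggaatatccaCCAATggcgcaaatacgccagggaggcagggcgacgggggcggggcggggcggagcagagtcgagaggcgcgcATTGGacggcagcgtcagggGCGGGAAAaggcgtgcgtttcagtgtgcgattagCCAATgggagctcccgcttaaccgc
CDT1: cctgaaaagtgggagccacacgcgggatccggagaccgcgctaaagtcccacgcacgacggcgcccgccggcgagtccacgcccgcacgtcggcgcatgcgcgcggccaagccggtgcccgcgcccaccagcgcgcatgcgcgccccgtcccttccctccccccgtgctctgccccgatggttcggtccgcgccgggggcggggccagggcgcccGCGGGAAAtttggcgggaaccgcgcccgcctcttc
They lie at chr2:135876444-135876693 (minus strand), chr13:33817899-33818148 (plus strand), chrX:24693668-24693917 (plus strand), chr20:5126623-5126872 (minus strand) and chr16:88803539-88803788 (plus strand). RFC5 also met the rule, but its RefSeq start lies away from the start in the count table, so its promoter is not shown.

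MCM6 carried 4 matches to an E2F word, starting at bases -152, -148, -90 and -86 from the start, as 2 places in which TTTGGCGC and the reverse of TTTCGCGC overlap, and CCAAT boxes at -100 and -58. RFC3 carried an E2F word at -55, and POLA1 one at -137 with a CCAAT box at -36. PCNA carried an E2F word at -59 and CCAAT boxes at -152, -79 and -25, and CDT1 an E2F word at -35. E2F words thus lay before MCM6, RFC3 and POLA1, which fell, and before PCNA and CDT1, which passed as lower in neither line. PCNA and CDT1 passed as higher in U2OS-AsiSI only, and lost that call when some single libraries were left out. Over the window of 300 bases around the start, 250 before and 50 after, 36 of the 40 genes matched the RefSeq table. The RefSeq start lay farthest from that in the count table for GINS3 (97391 bp), RFC5 (3115 bp) and GINS2 (1119 bp). All of these stay among the 36, GINS3 and GINS2 as genes with an E2F word. An E2F word lay in 19 of the 36 (52.8%), against 3.31% of 35116 promoter records. A CCAAT box lay in 20 of them (55.6%, against 34.6%), and the CHR words TTTGAA or TTCGAA, which are common in promoters of mitotic genes, in 1 (2.78%, against 16.4%), that of MCM6 at -246. These are matches of letters, not evidence of binding.

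Under siINTS11 the replication factors changed little as a group, with MCM6 far below the rest. Levels were scaled by TMM, which sets library sizes so that most genes do not move, and tested with edgeR's quasi-likelihood test, adjusted over all genes at a threshold of 0.05. In U2OS-AsiSI 17 of the 38 were lower and 3 higher (CDT1, GINS4 and PCNA), and 18 did not pass. Over all 20441 genes tested there 32.6% were lower and 35.4% higher. In U2OS 22 of 38 were lower, 1 was higher (GINS4) and 15 did not pass, beside 32.4% lower and 34.5% higher among 20687 genes. The median log2 change of the members was -0.09 in U2OS-AsiSI and -0.12 in U2OS, where that of all genes was 0.03 and 0.02. Values of the siCtrl and siINTS11 libraries did not overlap for 19 of the 38 in U2OS-AsiSI and for 24 in U2OS. The share of all genes without overlap is not given here, so these counts do not set the members apart. In both lines 16 members were lower and GINS4 was higher, and no member passed in opposite directions.

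**Figure D1:**
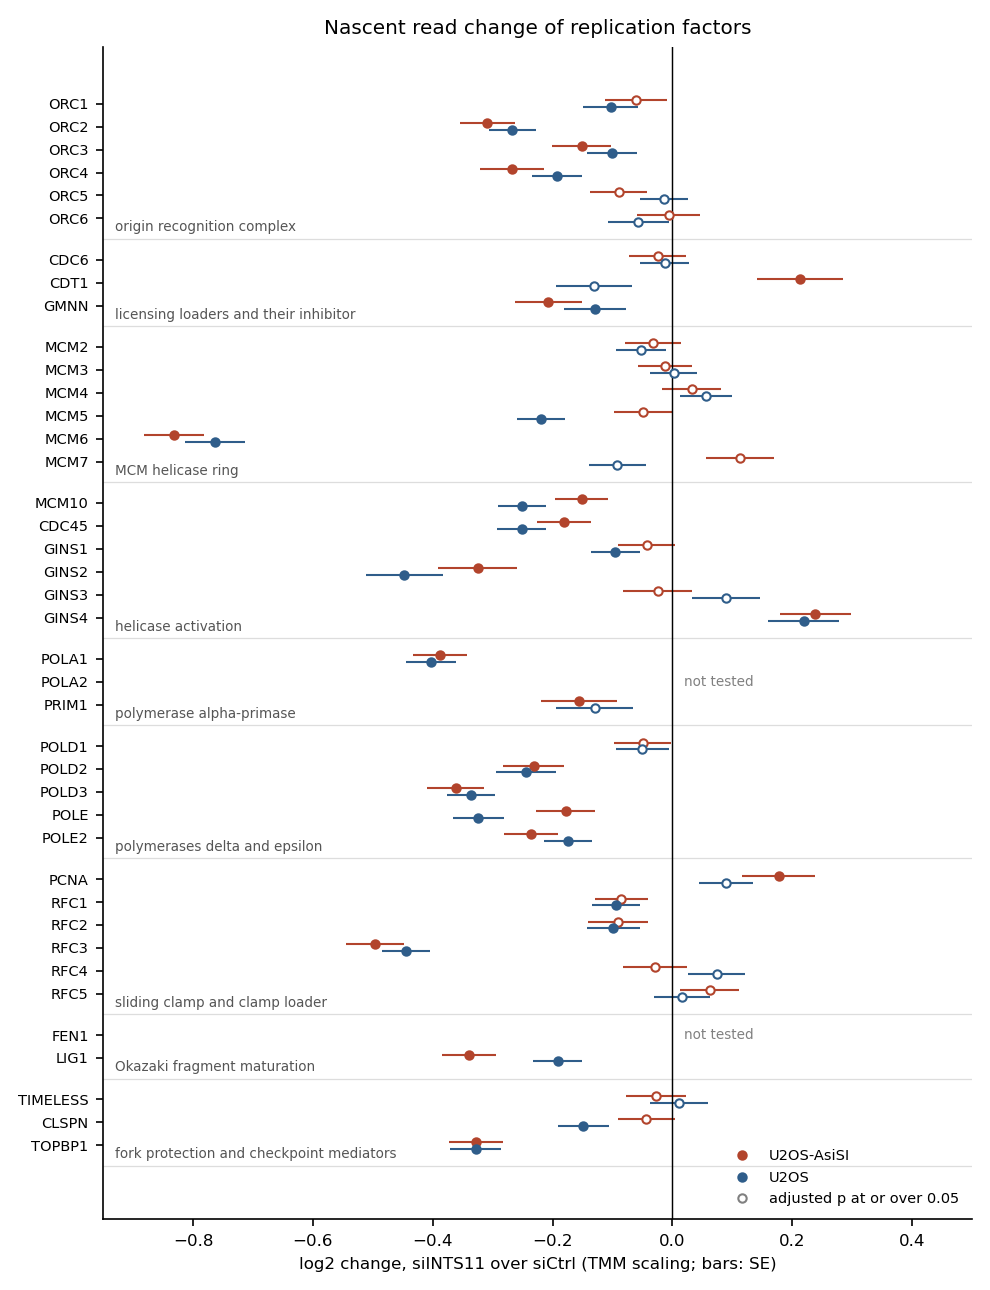
Log2 change of nascent reads under siINTS11 for each replication factor, by role, in U2OS-AsiSI (red) and U2OS (blue), with TMM scaling. Points are fitted changes from 3 against 3 libraries, bars are SE, open points did not pass, and with library totals alone the points shift by about +0.19 and +0.20, which turns those just below 0 positive.

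The scaling decides the sign of the small changes. With library totals alone, the median of all genes moved up by 0.19 in U2OS-AsiSI and 0.20 in U2OS. Then 20 members were higher and 7 lower in U2OS-AsiSI, beside 51.6% and 19.7% of all genes, and 17 were higher and 7 lower in U2OS, beside 53% and 18.4%. What did not depend on the scaling is smaller. MCM6, POLA1, POLD3, RFC3 and TOPBP1 fell, and GINS4 rose, in both lines under TMM, median-of-ratios and library totals, and in all 15 fits made for each line. In U2OS-AsiSI ORC2 and LIG1 also fell and CDT1 and PCNA rose under all 3 scalings, and in U2OS GINS2 and POLE fell. Directions given below are relative to TMM scaling, and values with library totals are given beside them. Levels are CPM after TMM scaling, for replicates 1, 2 and 3 in that order.

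In the origin recognition complex, which binds origins as a ring of ORC1 to ORC5 with ORC6 alongside, 3 of 6 members were lower in U2OS-AsiSI (ORC2, ORC3 and ORC4) and 4 in U2OS (these and ORC1), and none was higher. ORC2 in U2OS read 107, 112 and 115 CPM under siCtrl and 96.7, 92.5 and 94.7 under siINTS11, and in U2OS-AsiSI 107, 109 and 109.9 and 90.4, 88.4 and 83.2. Every siINTS11 library lay below every siCtrl library of its line, with log2 changes of -0.27 (SE 0.04, adjusted p 1.72e-07) and -0.31 (SE 0.05, adjusted p 7.21e-07). ORC4 in U2OS read 116, 123 and 126 CPM under siCtrl and 106, 106 and 114 under siINTS11, and in U2OS-AsiSI 105, 100.0 and 91.9 and 86.6, 84.8 and 75.0. Its siINTS11 libraries were again below in each line, by -0.19 (adjusted p 7.68e-05) and -0.27 (adjusted p 6.92e-05), and its siCtrl level was already lower in U2OS-AsiSI. ORC3 changed by -0.10 and -0.15, ORC1 by -0.10 and -0.06, while ORC5 and ORC6 passed in neither line. With library totals ORC2 in U2OS-AsiSI stayed lower (-0.12, adjusted p 0.012), ORC2 in U2OS did not pass (-0.07, adjusted p 0.107), ORC4 passed in neither line (0.01 and -0.08), and ORC1, ORC3, ORC5 and ORC6 were positive in both. The call of ORC1 in U2OS was lost on leaving out siCtrl replicate 2 or 3 or siINTS11 replicate 2 or 3 (adjusted p 0.0566 to 0.375). ORC3 lost its call in U2OS without siCtrl replicate 2 or 3 or siINTS11 replicate 2 (0.0838 to 0.17), and in U2OS-AsiSI without siINTS11 replicate 3 (-0.11, adjusted p 0.0804), while ORC5 gained one there without siINTS11 replicate 1 (-0.14, adjusted p 0.0118).

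Among the licensing factors, geminin (GMNN), the inhibitor of CDT1, was lower in both lines, CDT1 was higher in U2OS-AsiSI, and CDC6 passed in neither line. GMNN in U2OS read 31.8, 33.8 and 32.2 CPM under siCtrl and 31.5, 29.3 and 30.4 under siINTS11, and in U2OS-AsiSI 35.6, 33.5 and 35.7 and 31.7, 30.7 and 28.1. Its groups did not overlap in either line, with changes of -0.13 (SE 0.05, adjusted p 0.0277) and -0.21 (SE 0.06, adjusted p 0.00184). With library totals GMNN passed in neither line (0.07, adjusted p 0.276, and -0.02, adjusted p 0.8), and in U2OS it lost its call without siCtrl replicate 2 or 3 or siINTS11 replicate 2 or 3 (adjusted p 0.0547 to 0.188). CDT1 in U2OS read 22.7, 21.3 and 19.5 CPM under siCtrl and 20.4, 20.1 and 18.7 under siINTS11, and in U2OS-AsiSI 22.5, 27.4 and 27.8 and 26.7, 32.7 and 30.7. In U2OS-AsiSI the groups overlapped, since the lowest siINTS11 library lay below 2 of the siCtrl libraries, with a change of 0.21 (SE 0.07, adjusted p 0.0101), and in U2OS the change was -0.13 (adjusted p 0.0674). The rise of CDT1 in U2OS-AsiSI held with library totals (0.40, adjusted p 7.91e-05) but was lost without siCtrl replicate 1, siINTS11 replicate 2 or siINTS11 replicate 3 (0.12 to 0.19, adjusted p 0.0637 to 0.0953). In U2OS CDT1 passed as lower without siCtrl replicate 3 (-0.17, adjusted p 0.0255). CDC6, the loader that joins the origin complex with CDT1, changed by -0.01 and -0.02, and with library totals it passed as higher in both lines (0.19, adjusted p 9.8e-05, and 0.17, adjusted p 0.00166).

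The MCM ring is built of equal numbers of its subunits MCM2 to MCM7, and within it MCM6 stood apart. MCM6 in U2OS read 57.0, 60.6 and 53.4 CPM under siCtrl and 35.5, 32.4 and 35.0 under siINTS11, and in U2OS-AsiSI 61.5, 62.4 and 60.7 and 34.7, 35.6 and 33.2. Every siINTS11 library was far below every siCtrl library of either line, and the log2 changes were -0.76 (SE 0.05, adjusted p 4.6e-17) and -0.83 (SE 0.05, adjusted p 2.82e-15), so that MCM6 fell by 41.1% in U2OS and fell by 43.8% in U2OS-AsiSI. With library totals the changes were -0.56 and -0.64 (adjusted p 5.09e-13 and 3.28e-12). The other subunits changed by -0.22 (MCM5) to 0.06 (MCM4) in U2OS and by -0.05 (MCM5) to 0.11 (MCM7) in U2OS-AsiSI. Of these only MCM5 in U2OS passed (adjusted p 7.85e-06), and with library totals it did not (-0.02, adjusted p 0.655). With library totals all of these partners were higher in U2OS-AsiSI, and MCM2, MCM3 and MCM4 in U2OS. MCM7 in U2OS read 49.8, 46.3 and 46.8 CPM under siCtrl and 46.5, 47.0 and 43.2 under siINTS11, and in U2OS-AsiSI 52.3, 55.9 and 60.7 and 56.5, 66.0 and 59.7. Its changes of -0.09 (adjusted p 0.0838) and 0.11 (adjusted p 0.0789) did not pass, and the values of its groups overlapped. MCM7 passed as higher in U2OS-AsiSI without siCtrl replicate 3 or siINTS11 replicate 1 (0.16 in each, adjusted p 0.018 and 0.0138), and with library totals it was higher there by 0.30 (adjusted p 7.28e-05).

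The reads of MCM6 can be set against those of its partners in the same library, which takes out the scaling. This ratio was chosen after the values had been seen. MCM6 reads were 13.8%, 14.8% and 13.4% of the summed reads of MCM2, MCM3, MCM4, MCM5 and MCM7 in U2OS with siCtrl (14.0% ± 0.739, SD, n = 3), against 8.80%, 8.30% and 8.98% with siINTS11 (8.69% ± 0.350). The U2OS-AsiSI libraries gave 14.1%, 13.7% and 13.1% with siCtrl (13.6% ± 0.498), against 7.97%, 7.51% and 7.53% with siINTS11 (7.67% ± 0.261). The siRNA groups did not overlap in either line, and an exact permutation of 3 against 3 libraries cannot give a p below 0.1. The ratio shows unequal change within the ring, not that the partners were constant. MCM6 had fewer reads per base of its span (0.0378) than its partners, of which MCM3, MCM4, MCM5 and MCM7 were at 0.112 to 0.167 and MCM2 at 0.0868. MCM2, the least dense partner, changed by -0.05 and -0.03. MCM6 lies at chr2:135839626-135876443 on the minus strand, 36.8 kb, with no gene of its own strand over it.

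**Figure D2:**
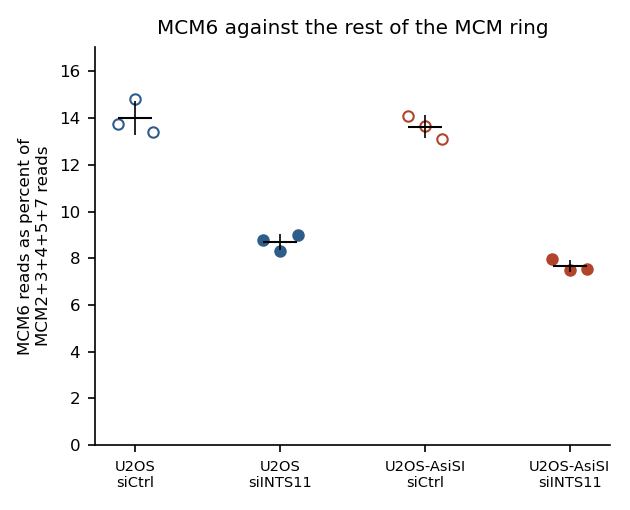
MCM6 reads as a percent of the summed reads of the other 5 ring subunits, by library. Points are libraries, bars the mean and SD of 3, and both siINTS11 groups sit between 7.51% and 8.98%, below all siCtrl libraries at 13.1% to 14.8%.

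Of the factors that activate the helicase, MCM10, CDC45 and GINS2 were lower in both lines, GINS1 in U2OS, and GINS4 was higher in both. GINS is a complex of GINS1 to GINS4, so its subunits moved in opposite directions. GINS2 in U2OS read 24.8, 26.2 and 22.3 CPM under siCtrl and 18.7, 19.3 and 17.0 under siINTS11, and in U2OS-AsiSI 25.9, 30.2 and 24.9 and 21.5, 20.9 and 22.1. Its groups were separate in each line, with changes of -0.45 (SE 0.06, adjusted p 9.24e-08) and -0.33 (SE 0.07, adjusted p 7.15e-05). With library totals the fall of GINS2 remained in U2OS (-0.25, adjusted p 0.00203) and did not pass in U2OS-AsiSI (-0.13, adjusted p 0.0917). GINS4 in U2OS read 23.9, 25.1 and 22.5 CPM under siCtrl and 30.2, 28.9 and 26.0 under siINTS11, and in U2OS-AsiSI 27.1, 30.4 and 28.8 and 31.6, 35.6 and 34.5. Every siINTS11 library was above every siCtrl library of its line, with changes of 0.22 (SE 0.06, adjusted p 0.0014) and 0.24 (SE 0.06, adjusted p 0.000659), and with library totals of 0.42 and 0.43. GINS4 has the gene AC009630.1 across its whole span on the opposite strand, at 45 to 78 reads, and kept 637 to 1008 reads of its own. MCM10, which helps to open the helicase, changed by -0.25 and -0.15, and CDC45, a part of the active helicase, by -0.25 and -0.18. With library totals neither gene passed in either line, and MCM10 and CDC45 were slightly positive in U2OS-AsiSI (0.04 and 0.01). GINS3 passed in neither line and GINS1 changed by -0.10 in U2OS. GINS1 lost that call without siCtrl replicate 2 or 3 or siINTS11 replicate 2 or 3 (adjusted p 0.0913 to 0.277) and with library totals was higher (0.10, adjusted p 0.0184, and 0.15 in U2OS-AsiSI, adjusted p 0.00407), as was GINS3 (0.29, adjusted p 6.62e-05, and 0.17, adjusted p 0.0147), while GINS3 passed as higher in U2OS without siCtrl replicate 2 (0.14, adjusted p 0.0471).

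POLA1, the catalytic subunit of polymerase alpha, was the longest member, at 303 kb on chromosome X (24693909 to 24996986, plus strand), and it fell by about the same amount in both lines. POLA1 in U2OS read 239.6, 244 and 265 CPM under siCtrl and 196, 184 and 197 under siINTS11, and in U2OS-AsiSI 240.2, 229.6 and 229 and 185, 173 and 174. The highest siINTS11 library of each line was far below the lowest siCtrl library, with changes of -0.40 (SE 0.04, adjusted p 2.71e-11) and -0.39 (SE 0.05, adjusted p 8.61e-09), and with library totals of -0.20 in each line. PRIM1, the primase subunit that starts each primer, in U2OS read 18.4, 18.4 and 18.7 CPM under siCtrl and 18.0, 17.4 and 16.3 under siINTS11, and in U2OS-AsiSI 19.0, 18.9 and 19.7 and 17.0, 17.4 and 17.1. Its groups did not overlap in either line, and the change passed in U2OS-AsiSI (-0.16 (adjusted p 0.0296)) but not in U2OS (-0.13 (adjusted p 0.0702)). The call of PRIM1 was lost without siCtrl replicate 1 or 3 or siINTS11 replicate 1 or 3 of U2OS-AsiSI (adjusted p 0.0565 to 0.0712), and with library totals the changes were 0.03 in U2OS-AsiSI (adjusted p 0.664) and 0.07 in U2OS (adjusted p 0.379). The gene AC117378.1, with 0 reads in every library, covers 48.58% of PRIM1 on the same strand, and how reads in the shared stretch were assigned is not given in the sources used here. POLA2, the other polymerase alpha subunit on the list, had 0 reads in all 12 libraries. The gene AP000944.5 covers 99.98% of POLA2 on the same strand and held 375 to 535 reads, so POLA2 was not measured.

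Of the polymerases that copy the strands, 4 of 5 members were lower in each line: POLD2, POLD3, POLE and POLE2. POLD3, an accessory subunit of polymerase delta, in U2OS read 152, 158 and 157 CPM under siCtrl and 131, 121 and 126 under siINTS11, and in U2OS-AsiSI 137, 143 and 130.2 and 111, 105 and 102. The groups were separate in each line, with changes of -0.34 (SE 0.04, adjusted p 7.89e-10) and -0.36 (SE 0.05, adjusted p 8.85e-08), and with library totals of -0.14 and -0.17 (adjusted p 0.000721 and 0.000623). POLE2, an accessory subunit of polymerase epsilon, in U2OS read 125, 127 and 133 CPM under siCtrl and 116, 114 and 118 under siINTS11, and in U2OS-AsiSI 120.2, 121 and 119.6 and 103, 105 and 97.3. Its changes were -0.17 (adjusted p 0.000166) and -0.24 (adjusted p 3.43e-05) with separate groups, and with library totals they were 0.03 and -0.05 and did not pass. POLE, the catalytic subunit of polymerase epsilon, changed by -0.32 and -0.18, and POLD2, which bridges polymerase delta's subunits, by -0.24 and -0.23. With library totals POLE stayed lower in U2OS (-0.12, adjusted p 0.00878) but was 0.01 in U2OS-AsiSI, and POLD2 passed in neither (-0.05 and -0.04). POLD1, the catalytic subunit of polymerase delta, passed in neither line (-0.05 and -0.05), and with library totals it was higher in both (0.15 and 0.14).

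The clamp and its loader split in the same way: RFC3 fell in both lines, while PCNA, the ring that tethers polymerases, was higher in U2OS-AsiSI. RFC3 in U2OS read 168, 174 and 179 CPM under siCtrl and 134, 126 and 130.1 under siINTS11, and in U2OS-AsiSI 174, 172 and 166 and 129, 116 and 116. No siINTS11 library reached any siCtrl library, and the changes were -0.44 (SE 0.04, adjusted p 3.38e-13) and -0.50 (SE 0.05, adjusted p 1.63e-10), the largest falls after that of MCM6 apart from GINS2 in U2OS. With library totals RFC3 changed by -0.24 and -0.31. RFC3 spans 148 kb on chromosome 13 (33818069 to 33966558, plus strand). Its partners in the loader differed from it: RFC1 changed by -0.09 and -0.09, RFC2 by -0.10 and -0.09, RFC4 by 0.07 and -0.03, and RFC5 by 0.02 and 0.06. Of these RFC1 and RFC2 passed, in U2OS only, and with library totals RFC1, RFC2, RFC4 and RFC5 were positive in both lines. RFC1 lost its call in U2OS without siCtrl replicate 2 or 3 or siINTS11 replicate 1 or 2 (adjusted p 0.0918 to 0.167), and RFC2 on leaving out any of them except siINTS11 replicate 1 (0.0584 to 0.144), while RFC2 passed in U2OS-AsiSI without siCtrl replicate 3 (-0.13, adjusted p 0.0302). PCNA in U2OS read 49.1, 46.4 and 48.0 CPM under siCtrl and 52.3, 53.3 and 50.2 under siINTS11, and in U2OS-AsiSI 56.1, 53.6 and 62.2 and 59.8, 73.0 and 61.2. In U2OS-AsiSI the change of 0.18 (adjusted p 0.0118) came with overlapping groups and was lost without siINTS11 replicate 2, its highest library and the shallowest of all (0.08, adjusted p 0.197), and without siCtrl replicate 2 (0.13, adjusted p 0.0856). In U2OS PCNA's groups did not overlap, the change was 0.09 (adjusted p 0.0776), and it passed without siCtrl replicate 1 (0.12, adjusted p 0.0266). With library totals PCNA was higher in both lines (0.29 and 0.37, adjusted p 1.01e-06 and 1.1e-05).

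LIG1, the ligase that seals lagging-strand pieces, was lower in both lines. LIG1 in U2OS read 101, 105 and 105 CPM under siCtrl and 96.6, 89.6 and 91.7 under siINTS11, and in U2OS-AsiSI 116, 119.7 and 112 and 91.4, 90.2 and 92.9. The groups did not overlap, and the changes were -0.19 (SE 0.04, adjusted p 6.09e-05) and -0.34 (SE 0.05, adjusted p 1.01e-07). With library totals LIG1 stayed lower in U2OS-AsiSI (-0.15, adjusted p 0.00228) and not in U2OS (0.01, adjusted p 0.861). FEN1, the flap nuclease that prepares those ends, had 0 to 2 reads per library and did not pass the filter on low counts, so no fold was taken. FADS2 covers 98.41% of FEN1 on the same strand and held 2390 to 4616 reads, so FEN1 was not measured.

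Among the fork protection and checkpoint factors TOPBP1 fell in both lines, CLSPN was lower in U2OS, and TIMELESS passed in neither. TOPBP1, which activates the checkpoint kinase ATR and also takes part in starting forks, in U2OS read 149, 161 and 166 CPM under siCtrl and 128, 124 and 135 under siINTS11, and in U2OS-AsiSI 166, 159 and 162 and 135, 128 and 124. The groups were separate in each line, with changes of -0.33 (SE 0.04, adjusted p 6.01e-09) and -0.33 (SE 0.05, adjusted p 2.03e-07), and with library totals of -0.13 and -0.14. CLSPN, which couples forks to checkpoint signalling, in U2OS read 94.2, 102 and 93.4 CPM under siCtrl and 91.6, 84.0 and 91.3 under siINTS11, and in U2OS-AsiSI 89.0, 95.1 and 87.0 and 86.7, 91.0 and 84.8. It passed in U2OS, where its groups did not overlap (-0.15 (adjusted p 0.00253)), and not in U2OS-AsiSI (-0.04 (adjusted p 0.423)). CLSPN lost the call in U2OS without siCtrl replicate 2 (-0.09, adjusted p 0.0883), and with library totals it was 0.05 there and higher in U2OS-AsiSI (0.15, adjusted p 0.00528). TIMELESS, the partner of claspin at the fork, changed by 0.01 and -0.03, and with library totals by 0.21 and 0.16.

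**Figure D3:**
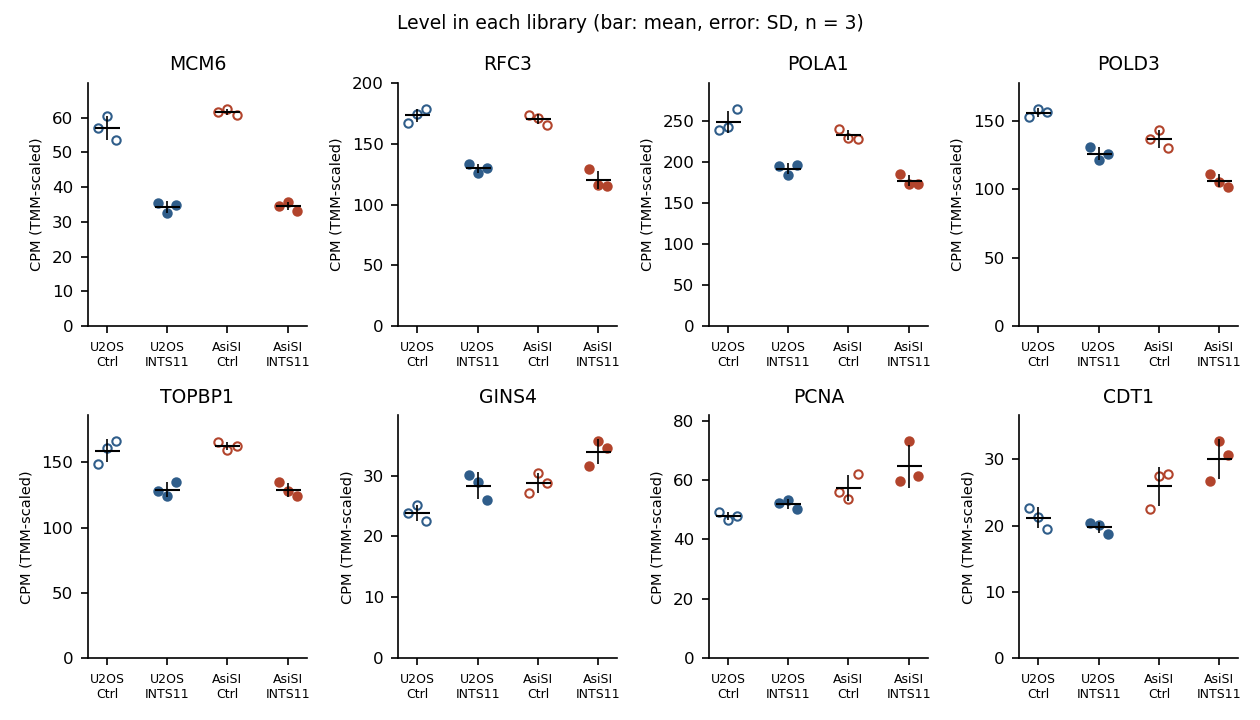
Levels of 8 replication factors in each library, in CPM after TMM scaling on linear axes from 0, with open points for siCtrl, filled points for siINTS11, and bars for the mean and SD of 3. MCM6, RFC3, POLA1, POLD3 and TOPBP1 lie lower in every siINTS11 library of each line, GINS4 lies higher, and PCNA and CDT1 overlap between siRNAs in U2OS-AsiSI.

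The difference of the siINTS11 effect between the lines was tested as an interaction over all 12 libraries. It asks whether the response depends on line, nuclease and OHT, which change as a unit. No member passed in either direction (0 of 38 by edgeR and 0 by DESeq2), and 4 had an unadjusted p under 0.05. Over 21521 genes 0.762% were higher and 3.1% lower, and 4001 had an unadjusted p under 0.05. The difference was largest for CDT1 and LIG1. For LIG1 it was -0.18 (SE 0.06, adjusted p 0.0718), and for CDT1 0.31 (SE 0.11, adjusted p 0.105). For MCM7 and MCM5 it was 0.17 and 0.14 (adjusted p 0.229 and 0.235). CDT1 passed without U2OS siCtrl replicate 3 (0.42, adjusted p 0.0363), without U2OS-AsiSI siINTS11 replicate 1 (0.40, adjusted p 0.0219) and with no count filter (0.36, adjusted p 0.00569). For MCM6 the difference was -0.10 with a 95% interval from -0.24 to 0.04, and for POLA1 -0.02 with one from -0.14 to 0.10. CDT1 and PCNA thus passed as higher in U2OS-AsiSI and not in U2OS without a difference between the lines that passed.

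Under siCtrl the replication factors stood higher in U2OS-AsiSI than in U2OS. Of 38 members 16 were higher and 3 lower (ORC4, GINS1 and POLD3), beside 17.8% higher and 17.2% lower among 19935 genes, and the members' median difference was 0.11 on the log2 scale where that of all genes was 0.01. Values of the 2 lines did not overlap for 23 members, and the share of all genes without overlap is not given here. The ring took part broadly: MCM2, MCM3, MCM4 and MCM7 were higher, by 0.14 to 0.24, and MCM5 and MCM6 lay at 0.09 (adjusted p 0.097) and 0.11 (adjusted p 0.0729). CDT1 differed most, by 0.30 (SE 0.07, adjusted p 0.00209), followed outside the ring by GINS4 (0.27), PCNA (0.26), POLD2 (0.25) and CDC6 (0.19). LIG1, ORC6, RFC5, GINS3, POLD1, RFC2 and RFC4 were higher by 0.13 to 0.17. ORC4 was lower by -0.29 (SE 0.05, adjusted p 1.17e-05), POLD3 by -0.19 (adjusted p 0.000979) and GINS1 by -0.17 (adjusted p 0.00294). These lower calls and 13 of the 16 higher ones held under all 3 scalings, and those of GINS3, RFC2 and RFC4 did not. Leaving out 1 of the 6 libraries, each in turn, ended calls of GINS3, POLD1, RFC2, RFC4 and MCM2 (adjusted p 0.0535 to 0.287), each at least without U2OS-AsiSI siCtrl replicate 2, and gave calls to MCM5, MCM6, GINS2, POLE and POLA1 (0.0166 to 0.0366).

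Gene span ran along with both kinds of difference. The 4 members under 10 kb (ORC6, CDT1, MCM7 and POLD2) were all higher in U2OS-AsiSI than in U2OS under siCtrl, as were 9 of 13 members of 10 to 30 kb, but only 2 of 17 of 30 to 100 kb and 1 of 4 above. Spearman's rho of that difference with span was -0.77 across the 38 members and -0.35 across all genes. Of all genes in the same span classes, 1187 of 4789, 1390 of 4835, 696 of 5970 and 269 of 4341 were higher. Under siINTS11 in U2OS-AsiSI 1 of 4 members under 10 kb was lower, 3 of 13 of 10 to 30 kb, 10 of 17 of 30 to 100 kb and 3 of 4 above, with rho of -0.58 (all genes -0.31). In U2OS the counts were 1 of 4, 4 of 13, 14 of 17 and 3 of 4, with rho of -0.39 (all genes -0.26). Lower among all genes of these classes were 553 of 4995, 1090 of 4980, 2524 of 6089 and 2490 of 4377 in U2OS-AsiSI. For U2OS they were 680 of 5089, 1035 of 5024, 2532 of 6157 and 2459 of 4417. MCM6, at 36.8 kb, and GINS2, at 13.9 kb, were below all other members of their span classes in both lines, and GINS3, at 111 kb in the count table, did not pass as lower. The median of all genes also ran from higher to lower with span: 0.28, 0.08, -0.07 and -0.24 in U2OS-AsiSI and 0.21, 0.10, -0.06 and -0.20 in U2OS. The members' medians lay below those of all genes in each span class, at 0.05, -0.03, -0.15 and -0.37 in U2OS-AsiSI and -0.11, -0.01, -0.17 and -0.37 in U2OS. Members share libraries and scaling, so these correlations are descriptions.

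**Figure D4:**
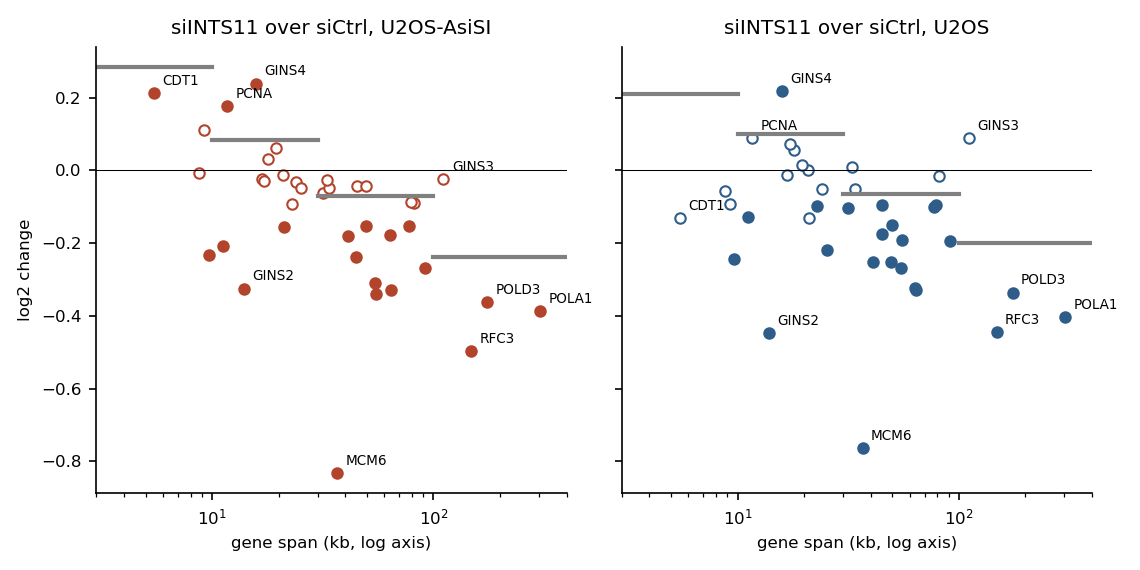
Log2 change under siINTS11 against gene span (log axis) for the 38 replication factors, in U2OS-AsiSI (left) and U2OS (right), with TMM scaling. Filled points passed, grey lines are medians of all genes under 10, 10 to 30, 30 to 100 and over 100 kb, and MCM6 lies far below the line for its span in both lines.

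**Figure D5:**
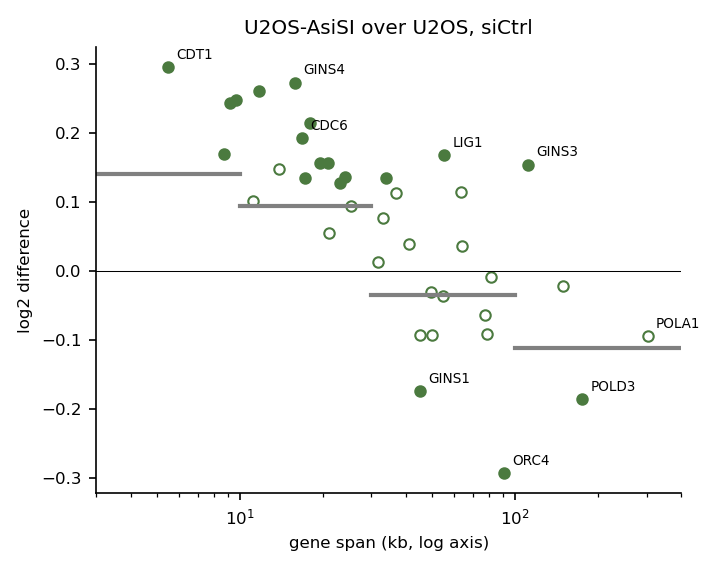
Log2 difference of U2OS-AsiSI over U2OS under siCtrl against gene span (log axis), with filled points for members that passed and grey lines for medians of all genes in 4 span classes. All 4 members under 10 kb lie above 0, and ORC4, POLD3 and GINS1 are the members that passed below it.

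Read density moved with span too. Members with short spans had more reads per base (rho -0.69 across 38), and 9 members averaged over 0.1 reads per base (ORC6, CDC6, CDT1, MCM3, MCM4, MCM5, MCM7, POLD2 and PCNA), with 0.194 the most in any library. In a fit on the genes under 0.1 reads per base alone, which 29 members entered, 15 members were lower and 1 higher in U2OS-AsiSI, 15 and 1 in U2OS, and 10 were higher between the lines. The share of all genes that passed in that fit is not given here. Among the 29 members rho with span was -0.59 for the lines, -0.40 for siINTS11 in U2OS-AsiSI and -0.34 in U2OS. Spans are those of the count table, which differ from RefSeq for some members: GINS3 has 111 kb there and 13.7 kb in RefSeq, POLD3 175 and 76.8 kb, and MCM5 25.3 and 54.9 kb. With RefSeq spans rho was -0.80 for the lines, -0.62 for siINTS11 in U2OS-AsiSI and -0.48 in U2OS.

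Many members share a promoter region with a gene read the other way. A gene on the opposite strand started within 1 kb of 19 members, in 21 pairs. Among pairs with both genes tested, both were lower in 3 of 17 in U2OS-AsiSI (ORC3, ORC4 and LIG1 with RARS2, MBD5 and ZSWIM9) and in 4 of 16 in U2OS (these and POLE), and neither line had a pair with both higher. Among all such pairs of tested genes in the count table both were lower in 9.8% of 2612 in U2OS-AsiSI and 8.01% of 2621 in U2OS, and both higher in 14.6% and 13.7%. Both genes passed in opposite directions in 2 of the 17 pairs in U2OS-AsiSI (those of PRIM1 and POLD3) and 3 of the 16 in U2OS (those of ORC1, POLD3 and TOPBP1), beside 22.9% and 23.2% of all pairs. MBD5, whose start lies 593 bp from that of ORC4, changed by -0.61 in U2OS and -0.63 in U2OS-AsiSI, more than ORC4 did. LIPT2, 127 bp from POLD3, rose by 0.60 and 0.72 while POLD3 fell, and TPRA1, 143 bp from MCM2, rose by 0.46 and 0.39 while MCM2 did not pass. MBD5, LIPT2 and TPRA1 keep these directions with library totals, whereas RARS2 and ZSWIM9 then do not pass in either line. MCM4 and PRKDC start 7 bp apart, and neither passed in U2OS-AsiSI, while in U2OS PRKDC was lower (-0.10, adjusted p 0.0399). With library totals PRKDC was higher in both lines (0.10 in each, adjusted p 0.00229 in U2OS and 0.00913 in U2OS-AsiSI).

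Of 18 tested members with an E2F word 9 were lower and 2 higher in U2OS-AsiSI, with a median change of -0.10, and of 16 without a word 7 were lower and none higher, with a median of -0.09. In U2OS 11 of 18 and 9 of 16 were lower, with medians of -0.14 and -0.10. Under siCtrl 8 of 18 members with a word and 6 of 16 without stood higher in U2OS-AsiSI, with median differences of 0.13 and 0.07. These sets were not tested against each other. They leave out MCM4, MCM5, GINS4 and POLD3, which had no promoter record. GINS4, higher in both lines, and POLD3, lower in both, are therefore not counted.

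Per kb of span, the levels of members differed widely in U2OS siCtrl. MCM7 was highest, at 5.17 ± 0.205 CPM per kb (SD, n = 3), followed by MCM3 at 5.02 ± 0.0823, and the lowest tested member was GINS3, at 0.223 ± 0.0115, over its long span. MCM7 and MCM3 differed by less than their spread. MCM6 stood at 1.55 CPM per kb, the lowest of the ring, where its partners ranged from 2.83 (MCM2) to 5.17 (MCM7). Under siINTS11 MCM6 stood at 0.932 CPM per kb in U2OS and 0.937 in U2OS-AsiSI. POLA1, POLD3 and RFC3, the 3 longest members in the count table, stood at 0.823, 0.889 and 1.17 CPM per kb in U2OS siCtrl. These levels depend on the span used. GINS3 has 111 kb in the count table and 13.7 kb in RefSeq, POLD3 175 and 76.8 kb, and MCM5 25.3 and 54.9 kb. The low place of GINS3 therefore holds for the count table's span only.

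Of 28 tested genes for further replication factors, 13 were lower and 5 higher in U2OS-AsiSI and 14 lower and 4 higher in U2OS, with medians of -0.09 and -0.12. Among them TOP2B, a topoisomerase, changed by -0.42 in U2OS and -0.43 in U2OS-AsiSI, MTBP, which helps to fire origins, by -0.30 and -0.37, and RNASEH2B, a subunit of the nuclease that removes ribonucleotides from DNA, by -0.24 and -0.38. Of 11 genes for nucleotide supply and chromatin assembly, 2 were lower and 1 higher in U2OS-AsiSI and 4 lower in U2OS. RRM1, a subunit of ribonucleotide reductase, changed by -0.21 and -0.18. With library totals TOP2B and MTBP were still lower in both lines (-0.22 and -0.10 in U2OS, -0.24 and -0.18 in U2OS-AsiSI), RNASEH2B in U2OS-AsiSI (-0.19, adjusted p 0.000901) but not in U2OS (-0.05, adjusted p 0.397), and RRM1 in neither (adjusted p 0.894 and 0.841). The medians of both lists then turned positive in both lines (0.10 and 0.08, and 0.18 and 0.15, U2OS-AsiSI first). Under siCtrl 6 of the 28 further replication factors were higher and 6 lower in U2OS-AsiSI than in U2OS, with a median of -0.02, where 16 of the 38 members were higher and 3 lower. The 11 genes for nucleotide supply and chromatin assembly gave 1 higher and 1 lower, with a median of 0.03. The lists were not tested against each other.

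Of 11 regulators of the G1/S transition, 8 were lower in each line and none higher, with medians of -0.21 in both. RBL1 and RB1, which hold E2F factors in check, fell by 0.56 and 0.56 on the log2 scale in U2OS and by 0.60 and 0.55 in U2OS-AsiSI, and CCNE2, a cyclin of S-phase entry, by 0.49 and 0.47. With library totals 3 of 11 in U2OS and 4 in U2OS-AsiSI were lower and 1 and 2 higher, and RBL1, RB1 and CCNE2 were still lower in both lines (-0.41 to -0.28). Under siCtrl 5 of the 11 were higher in U2OS-AsiSI than in U2OS and none lower, with a median of 0.06. Of 17 mitotic genes, 12 were lower in each line, with 2 higher in U2OS-AsiSI. CENPE, a kinesin of the kinetochore, changed by -0.34 and -0.43 and BUB1B, a checkpoint kinase, by -0.28 and -0.35. With library totals 2 of 17 mitotic genes in U2OS and 5 in U2OS-AsiSI were lower and 6 and 5 higher, with CENPE (-0.14 and -0.24) and BUB1B (-0.08, adjusted p 0.0429, and -0.16) lower in both. Under siCtrl 12 of 17 mitotic genes were lower in U2OS-AsiSI and none higher, with a median of -0.15, and with library totals 8 were lower and 1 higher. Summed mitotic CPM was 2263 to 2333 in U2OS siCtrl, 1984 to 2036 in U2OS-AsiSI siCtrl, 2035 to 2090 in U2OS siINTS11 and 1692 to 1776 in U2OS-AsiSI siINTS11. In bulk RNA fewer cells in a phase and less RNA per cell cannot be told apart, and the part of cell cycle phase in the changes of the replication factors was not tested.

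Of 8 blood, endothelial and epithelial markers 4 (PTPRC, CD3E, HBB and KRT5) had at most 30 reads in every library. EPCAM had 108 to 201 reads and CDH1 136 to 264, while PECAM1 and CDH5 had 22 to 103 and 28 to 103. PECAM1 rose by 1.65 on the log2 scale in U2OS (adjusted p 2.46e-11) and 1.89 in U2OS-AsiSI (adjusted p 3.97e-11), and CDH5 by 1.26 (adjusted p 1.13e-08) and 1.57 (adjusted p 5.42e-10). EPCAM rose in U2OS (0.42, adjusted p 0.000612), and its change in U2OS-AsiSI was 0.24 (adjusted p 0.0736). The summed level of the 8 was 12.5 to 13.3 CPM in U2OS siCtrl and 12.4 to 13.9 in U2OS-AsiSI siCtrl, and 19.0 to 20.7 and 18.6 to 18.8 under siINTS11. The 9 osteoblast markers summed to 769.8 to 798 and 623 to 648 CPM under siCtrl and to 513 to 555 and 433 to 466 under siINTS11, in the same order of lines. RUNX2 had the most reads of them under siCtrl, at a mean of 438 CPM in U2OS and 326 in U2OS-AsiSI. Its means under siINTS11 were 250 and 155 CPM, so the sums largely follow this gene. Reads were counted over whole gene spans, so this is no ranking per length. RUNX2 changed by -0.84 in U2OS and -1.07 in U2OS-AsiSI, whereas ALPL rose by 1.47 and 1.31 and SPP1 by 2.41 and 2.14. The rises of PECAM1, CDH5, ALPL and SPP1 and the fall of RUNX2 also passed with library totals in both lines. The part of these genes in the changes of the replication factors was not tested.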

How the data were processed

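TT-seq libraries of 4 groups of 3 were used, grouped and numbered by the sample titles. The authors deposited raw read counts per gene, whole numbers over the whole gene span, in the layout of featureCounts per the file headers. Trimmomatic 0.36, STAR 2.7, featureCounts, deepTools and hg38 are named in the submitters' processing notes. The strand setting and duplicate handling are not given in the sources used here, and GINS4, which an opposite-strand gene covers whole, kept its reads. Yeast spike-in counts were not used here, so overall output of nascent RNA was not compared. The members and all gene lists were chosen with earlier results of these data known, and 2 genes of the cell type marker lists are not reported here.

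Genes were tested on those counts with edgeR 4.0.16 in R 4.3.3 (filterByExpr, TMM, estimateDisp, robust glmQLFit, glmQLFTest, two-sided), on the 6 libraries compared, or all 12 for the interaction. Benjamini-Hochberg adjustment of p-values ran over all genes tested. SE is the absolute log2 change over the square root of F. Printed CPM use TMM factors over all 12 libraries. Values in every library were given for the 2 members per role with the smallest adjusted p in U2OS-AsiSI, and other lists name up to 3 members by the same measure. Alternatives were other scalings, count filters, DESeq2 1.42.0, a replicate block, thinning to the smallest library, genes under 0.1 reads per base and leaving out each library. On simulated data 93.9% of 2-fold genes were recovered in the U2OS-AsiSI design (20113 genes), 83% in U2OS (20354), 83.7% for the interaction (21102) and 87.8% between the lines (19714), with 1.91%, 7.06%, 3.73% and 5.88% of calls false. Recovery of 1.25-fold genes was 41.7%, 67.3%, 44% and 46% in the same order, and of 1.5-fold genes 79.6%, 76%, 46.9% and 59.2%. No member changed 2-fold. The simulation changed far fewer genes than passed under siINTS11, so its rates need not hold for these libraries. Counts are of reads, not molecules.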

Additional observations from a re-analysis of the deposited data

Results flagged for a closer look

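TICRR, which helps to fire origins, is no member of the 40 but was the only gene of the other replication genes whose siINTS11 effect differed between the lines by the test of the difference itself. The difference was 0.243 on the log2 scale (SE 0.062, adjusted p 0.0234). TICRR stood at 106, 102 and 113 CPM in U2OS siCtrl and 92.0, 93.2 and 95.3 CPM in U2OS siINTS11, a change of -0.22 (adjusted p 9.28e-06). In U2OS-AsiSI it stood at 73.8, 78.6 and 73.6 CPM under siCtrl and 78.2, 79.8 and 76.1 CPM under siINTS11, a change of 0.06 (adjusted p 0.301). With library totals TICRR changed by -0.02 in U2OS (adjusted p 0.616) and was higher in U2OS-AsiSI (0.24, adjusted p 2.2e-05). Which line changed thus depends on the scaling. Under siCtrl TICRR was lower in U2OS-AsiSI than in U2OS by -0.50 on the log2 scale (adjusted p 4.68e-10).

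RUNX2, an osteoblast transcription factor and no member either, also differed in its siINTS11 effect by the same test, by -0.264 on the log2 scale (SE 0.066, adjusted p 0.0213). Its changes were -0.84 in U2OS (adjusted p 3.91e-20) and -1.07 in U2OS-AsiSI (adjusted p 1.87e-18).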

How the results depend on the processing

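MCM6, POLA1, POLD3, RFC3 and TOPBP1 (lower) and GINS4 (higher) kept their direction and passed in all 15 fits of each line. With library totals alone the members' medians were 0.10 in U2OS-AsiSI and 0.083 in U2OS, with 20 and 17 higher and 7 and 7 lower. Signs then turned for 20 members in U2OS-AsiSI: ORC1 (0.13), ORC3 (0.038), ORC5 (0.10), ORC6 (0.18), CDC6 (0.17), MCM2 (0.16), MCM3 (0.18), MCM5 (0.14), MCM10 (0.039), CDC45 (0.0090), GINS1 (0.15), GINS3 (0.17), PRIM1 (0.035), POLD1 (0.14), POLE (0.012), RFC1 (0.10), RFC2 (0.099), RFC4 (0.16), TIMELESS (0.16) and CLSPN (0.15). In U2OS they turned for 18: ORC1 (0.10), ORC3 (0.10), ORC4 (0.0065), ORC5 (0.19), ORC6 (0.14), CDC6 (0.19), CDT1 (0.069), GMNN (0.070), MCM2 (0.15), MCM7 (0.11), GINS1 (0.10), PRIM1 (0.070), POLD1 (0.15), POLE2 (0.025), RFC1 (0.10), RFC2 (0.10), LIG1 (0.0081) and CLSPN (0.050). Library totals also gave a median of 0.16 between the lines and median levels of 1.99, 2.10, 2.18 and 2.30 CPM per kb in U2OS siCtrl, U2OS siINTS11, U2OS-AsiSI siCtrl and U2OS-AsiSI siINTS11. With a mean count of at least 50, 5 members were higher in each line and medians were -0.036 (U2OS-AsiSI) and -0.074 (U2OS). With genes under 0.1 reads per base, so fewer genes tested, 1 member was higher in U2OS-AsiSI (median -0.12) and 10 between the lines (median 0.057). For the count minimum and the limit on reads per base, shares of all genes that passed are not given here.

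For the difference between the lines 832 genes passed, and 447 with median-of-ratios factors, 423 with DESeq2, 544 after thinning and 531 with the replicate block. The members' median there was 0.0020 with median-of-ratios factors, 0.0020 with DESeq2, 0.017 with no count filter, which called 1 member (CDT1), and 0.040 under the minimum of 50. The cause was not tested. Leaving out 1 library gave 1 to 4 higher and 15 to 17 lower in U2OS-AsiSI (median -0.11 to -0.06), and 1 to 2 higher and 15 to 21 lower in U2OS (median -0.15 to -0.092). It gave 11 to 16 higher and 3 to 4 lower between the lines (median 0.079 to 0.13). For the difference it gave 286 to 946 genes and 0 to 1 member higher (median -0.043 to 0.015). Genes past the threshold then numbered 12705 to 13777 in U2OS-AsiSI, 12884 to 13916 in U2OS and 5341 to 7016 between the lines. Replicate numbers gave no clear sign of pairing: same-number correlations were 0.22, 0 and 0.01 in U2OS-AsiSI and -0.02, -0.08 and 0.06 in U2OS, and not every sample matched its own number best. With 3 libraries per group such correlations cannot settle whether samples were paired. With the replicate block 19 members were lower and 4 higher in U2OS-AsiSI, 20 and 1 in U2OS, and 3 and 13 between the lines. Shares of all genes that passed in these block fits are not given here. Reads without molecular identifiers limit every value to the spread between these libraries.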
